A study of Mus musculus with 15 samples.

Results

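The genes described here are 38 genes of protein folding in the endoplasmic reticulum (ER) and of the unfolded protein response, found by gene symbol in a table of 38283 genes measured in sorted mouse islet cells. All 38 have a row. Alpha cells (n = 5) and beta cells (n = 4) were sorted from Glu-Venus mice, in which the proglucagon promoter drives the fluorescent protein Venus. Alpha cells were Venus-positive, and beta cells were Venus-negative cells with high scatter and high autofluorescence. Delta cells (n = 6) were sorted from mice of the genotype Sst-CreXROSA26EYFP/EYFP, in which Cre under the somatostatin promoter switches on EYFP. All mice were on the C57BL/6 background and no treatment was given. Neither age nor sex is stated in the labels. Islets of several mice were pooled for each sample, and in any comparison with delta cells the cell type and the mouse line cannot be told apart. Whether an alpha and a beta sample came from the same pool is not stated, and the main fit did not pair them. RNA was amplified and sequenced as single 50 nt reads, and expression is given as FPKM, a read number scaled by library size and transcript length, so that levels can be compared between genes.

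Islet endocrine cells make large amounts of peptide hormone, all of which enters the ER as an unfolded precursor. There, chaperones of the Hsp70 and Hsp90 families hold the chain, lectin chaperones retain glycoproteins, and protein disulphide isomerases form disulphide bonds, with the Ero1 oxidases passing the electrons on to oxygen. Proinsulin has several disulphide bonds, prosomatostatin has a single one in its mature peptide, and glucagon has none. Proteins that fail to fold are sent back to the cytosol for degradation (ER-associated degradation). When unfolded protein builds up, the sensors Ire1 (Ern1), Perk (Eif2ak3) and Atf6 raise the transcription of folding and degradation genes through Xbp1, Atf6, Atf4 and Chop (Ddit3).

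The labels fitted the hormone genes. Gcg ranged from 184426 to 344947 FPKM in alpha cells, Ins2 from 91248 to 638871 FPKM in beta cells and Sst from 101492 to 266276 FPKM in delta cells. In the other cell types Gcg was at 166 to 1817 FPKM (beta) and 236 to 767 FPKM (delta). Ins2 was at 2634 to 9094 FPKM (alpha) and 3803 to 7190 FPKM (delta), and Sst at 1139 to 2427 FPKM (alpha) and 37.9 to 461 FPKM (beta). The part of such signal in the differences below was not tested. Ppy, the hormone gene of pancreatic polypeptide cells, was at 17728 to 41392 FPKM in alpha cells, 16.9 to 98.1 FPKM in beta cells and 10857 to 48600 FPKM in delta cells. The summed FPKM of 10 acinar marker genes, a cell type rich in ER, ran from 8.17 to 79.3 in alpha cells, 0.0283 to 10.1 in beta cells and 72.5 to 566 in delta cells, with Amy2a5 and Ptf1a listed at 0 in every sample. The sums of 5 markers each reached 20.9 FPKM for duct cells, 44.3 FPKM for immune cells, 1.61 FPKM for endothelial cells and 3.79 FPKM for mesenchymal cells. A further split was by ribosomal protein genes, 85 of which summed to an FPKM of 65611 to 140979 in alpha 1 to 3, beta 2 and delta 1 and 2 (the high set) and of 7919 to 38775 in the other 9 (the low set). The FPKM of all rows summed to 12.47 M to 26.3 M in the high set and to 2.82 M to 4.67 M in the low set. For the differences discussed, those within each set are given beside the pooled ones, high set first. Beta 2 was the only beta sample of the high set, and it was the highest beta sample for 28 of 37 members tested, against 55.3% of all genes tested.

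Of the 38 members, 37 passed the filter of a mean above 1 FPKM in at least 1 cell type. The exception was Trib3. Each gene was tested on log2(FPKM + 1) with limma across all 15 samples, with p-values adjusted by Benjamini-Hochberg over the 14405 genes, and a difference was called at an adjusted p under 0.05. Differences below are differences of mean log2(FPKM + 1), given with their standard error (SE), which understate the change of genes near 1 FPKM. Across the 3 cell types, 7 members were called in limma's F-test, and 16.0% of all genes tested were called. In pairs of cell types 11 members were called at least once, as were 19.0% of all genes tested. In bulk samples of this kind, fewer cells of a type and less RNA per cell cannot be told apart.

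Beta cells had the highest mean log2(FPKM + 1) for 22 members, delta cells for 11 and alpha cells for 5. Against alpha cells, 7 members were higher in beta cells (Atf6, Ddit3, Derl3, Dnajb11, Edem1, Ero1lb and Sel1l), where 2.84% of all genes tested were called higher, and none was lower, where 4.82% were. No member was lower at an unadjusted limma p under 0.05 either, where 14.3% of all genes tested were, and 13 were higher, where 8.67% were. The median difference was 0.63 over the members and -0.13 over all genes tested. All beta samples were above all alpha samples for 7 of the 37 members tested (3.05% of genes tested) and below for none (5.07% of genes tested). Against beta cells, delta cells were lower for 7 members (Ddit3, Derl2, Derl3, Dnajb11, Ero1lb, Hspa5 and Sel1l), with 2.99% of all genes called lower, and higher for Txndc5 alone, with 11.7% called higher. The count of 7 lower members was 16 with median-ratio size factors, 15 with quantile normalization and 13 with the sample set as covariate, and 1 without beta 4. Over all genes tested in each fit, the lower calls went from 431 to 1297, 1348 and 661, and to 264 without beta 4. The count of 7 higher in beta than alpha cells was 12 with either scaling, and 3 without beta 4. Over all genes tested in each fit, these calls went from 409 to 1091 and 937, and to 244 without beta 4. Only Ero1lb and Sel1l stayed called when just the 2 cell types compared were fitted, where 221 of all genes tested were called higher. The median difference of delta minus beta cells was -0.55 over the members and 0.30 over all genes tested. All delta samples were below all beta samples for 6 of the 37 (2.62% of genes tested) and above for none (12.3% of genes tested). Trib3, which was not tested, would add 1 to each of these counts of 7 and 6. Both comparisons share the beta samples.

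Between delta and alpha cells only Wfs1 was called, higher in delta cells, where 5.33% of all genes were called higher and 1.48% lower. Wfs1 was also the only member with all delta samples above all alpha samples (4.97% of genes tested), and none had all delta samples below (1.67% of genes tested). At an unadjusted limma p under 0.05, 3 members were higher and 1 lower, where 12.6% and 4.14% of all genes tested were. The median difference was 0.18 over the members and 0.13 over all genes tested.

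**Figure D1:**
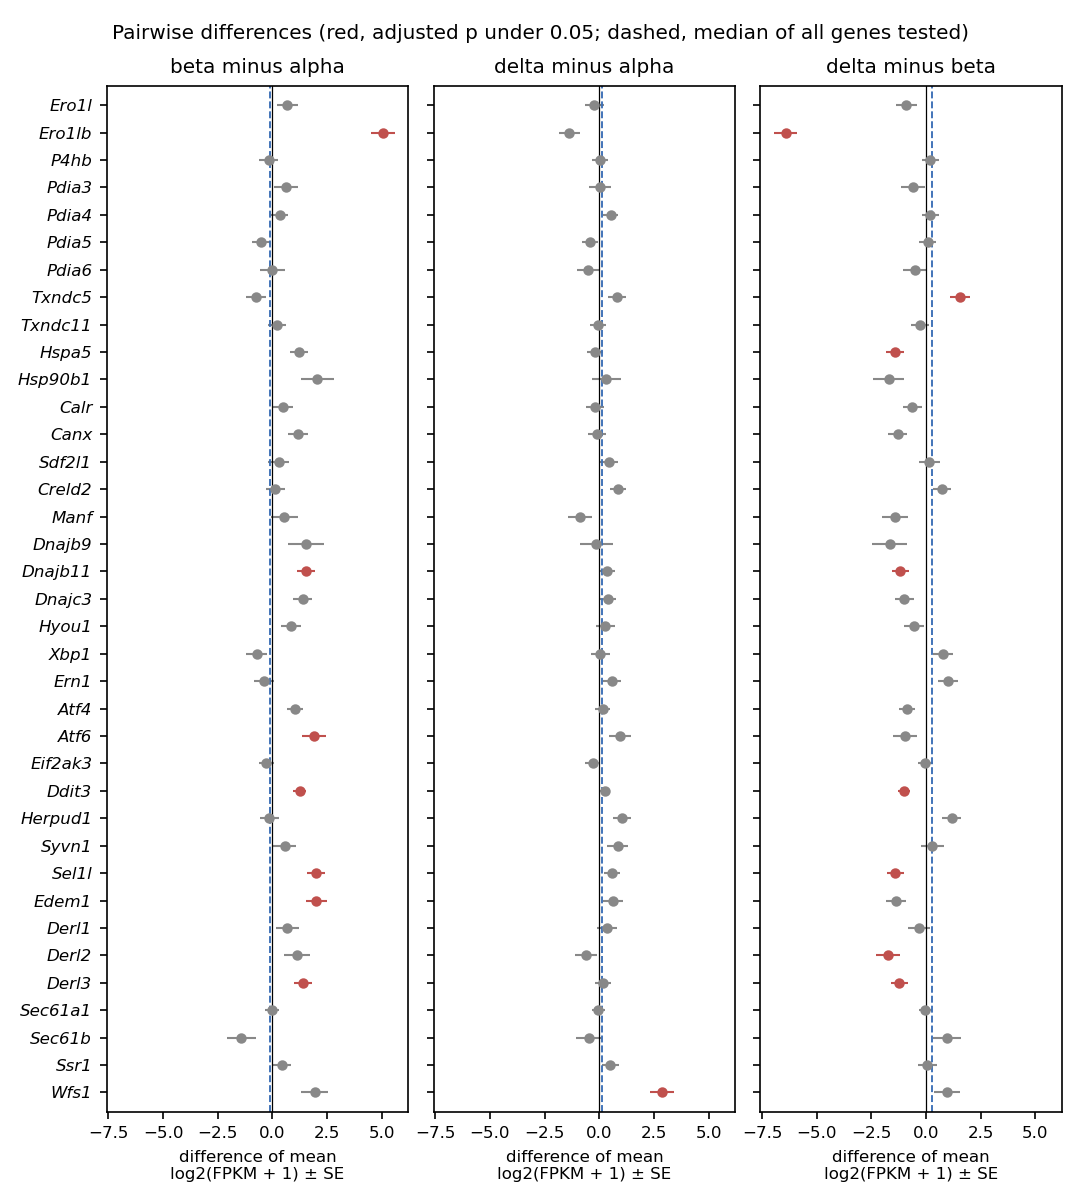
Difference of mean log2(FPKM + 1) with its SE for each of the 37 members tested, in 3 pairs of cell types; red points passed the limma test and the dashed line is the median of all genes tested. The red points lie to the right in beta minus alpha cells (7 of 7) and mostly to the left in delta minus beta cells (7 of 8), with Ero1lb at 5.05 and -6.43.

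Many genes of this pathway are switched on through the ER stress response element (ERSE), which Atf6 and Xbp1 bind together with the factor NF-Y. The window from 250 bases before to 50 bases after the start site was available in RefSeq (GRCm38.p6) for 33 members, and was searched on both strands for the letters of ERSE (CCAAT and CCACG with 9 bases between), of ERSE-II (ATTGG and CCACG with 1 base between), of the Xbp1 element TGACGTGG and of the Atf4 element TGATGNAAT. ERSE was found in 10 of the 33 members (30.3%), and in 37 of 27025 genes (0.137%). ERSE-II was found in Dnajb11 and Herpud1, and in 12 genes in all (0.0444%). TGACGTGG was found in Txndc5 and Txndc11, and in 193 genes (0.714%). TGATGNAAT was found in no member, and in 293 genes (1.08%). The 10 members with ERSE were Ero1lb, Pdia6, Hspa5, Hsp90b1 (with 2), Calr, Canx, Creld2, Dnajc3, Syvn1 and Derl3. A match of letters is a description of the sequence and not a measured binding site.

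The stretches of 60 bases around the motif are shown for Ero1lb, Hspa5 and Hsp90b1, for Canx, Dnajc3 and Derl3 as further examples of ERSE, and for Herpud1 and Txndc5 as examples of the other elements, read along each gene's own strand, with the motif's fixed letters in capitals (CGTGG and ATTGG where ERSE lies on the other strand). The Ero1lb stretch is at chr13:12565667-12565726, Hspa5 at chr2:34772010-34772069, Canx at chr11:50325774-50325833, Dnajc3 at chr14:118937812-118937871, Derl3 at chr10:75893227-75893286, Herpud1 at chr8:94386362-94386421 and Txndc5 at chr13:38528008-38528067, and the Hsp90b1 stretches are at chr10:86705612-86705671 (a) and chr10:86705507-86705566 (b). Canx, Hsp90b1 and Txndc5 are on the minus strand and the others on the plus strand.
Ero1lb, ERSE: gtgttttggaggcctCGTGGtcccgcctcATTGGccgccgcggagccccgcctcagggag
Hspa5, ERSE: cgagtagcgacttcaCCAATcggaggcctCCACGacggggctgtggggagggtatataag
Hsp90b1 a, ERSE: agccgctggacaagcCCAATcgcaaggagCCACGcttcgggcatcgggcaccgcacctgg
Hsp90b1 b, ERSE: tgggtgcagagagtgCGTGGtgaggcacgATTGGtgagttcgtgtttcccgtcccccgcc
Canx, ERSE: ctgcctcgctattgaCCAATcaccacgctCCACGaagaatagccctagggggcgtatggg
Dnajc3, ERSE: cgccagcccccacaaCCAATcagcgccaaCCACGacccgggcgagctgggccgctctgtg
Derl3, ERSE: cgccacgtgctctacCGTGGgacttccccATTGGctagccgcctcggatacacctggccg
Herpud1, ERSE-II: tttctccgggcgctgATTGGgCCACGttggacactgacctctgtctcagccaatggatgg
Txndc5, TGACGTGG: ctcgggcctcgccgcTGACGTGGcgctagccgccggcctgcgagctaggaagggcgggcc

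The ERSE letters lay between 212 bases (Hsp90b1) and 26 bases (Syvn1) before the start site. The 10 members with ERSE had a median difference of 1.2 in beta minus alpha cells and of -1.11 in delta minus beta cells, and the 22 tested members with a window and no ERSE had medians of 0.38 and 0.02. Over all genes tested the medians were -0.13 and 0.30. Of the 10, 2 were called higher in beta than alpha cells (2.84% of all genes tested were) and 3 lower in delta than beta cells (2.99% were). Of the 22, 4 were called higher in beta than alpha cells, 4 lower in delta than beta cells and 1 higher in delta than beta cells (11.7% of all genes tested were). Among the members with ERSE, beta minus alpha cells ranged from 5.05 (Ero1lb) to 0.00 (Pdia6).

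**Figure D2:**
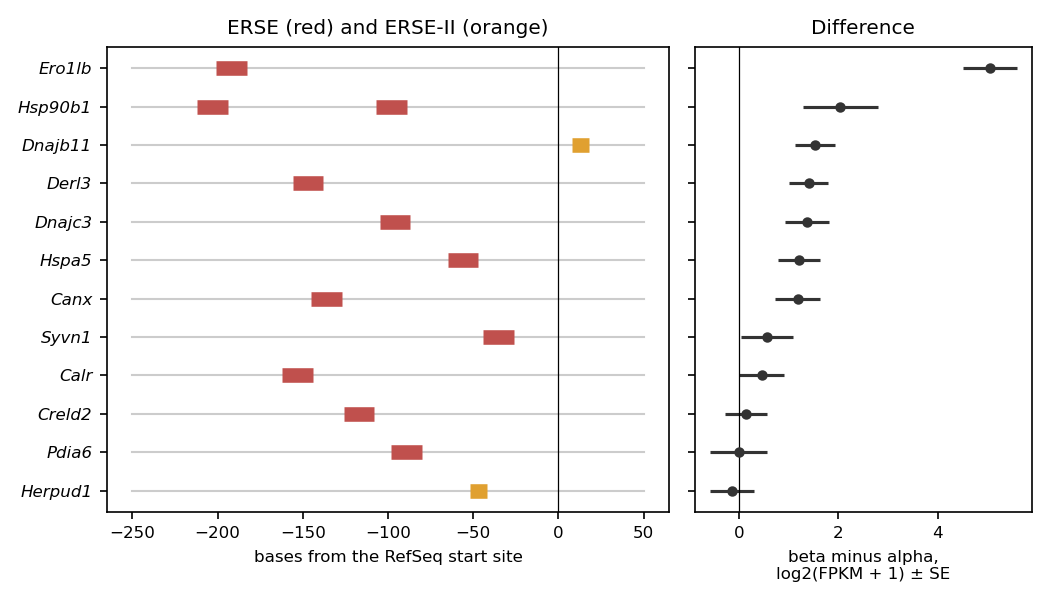
Left, position of ERSE (red) and ERSE-II (orange) in the window from 250 bases before to 50 bases after the RefSeq start site for the 12 members that hold one; right, the difference of beta minus alpha cells in log2(FPKM + 1) with its SE. Members are ordered by that difference, from Ero1lb (5.05) to Herpud1 (-0.14).

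Among the genes of oxidative folding, Ero1lb (chr13:12565874-12611396, plus strand, the oxidase known as Ero1-beta of endocrine pancreas) gave the largest difference of any member. Its FPKM values were 18.4, 13.5, 11.2, 10.1 and 21.4 in alpha cells 1 to 5. They were 316, 1260.4, 242 and 695 in beta cells 1 to 4. They were 3.15, 1.40, 11.9, 7.74, 6.31 and 4.26 in delta cells 1 to 6. Every beta sample was above 240 FPKM and every other sample below 22 FPKM, so that beta cells did not overlap with either of the other cell types. Beta cells averaged 628 ± 466 FPKM (SD, n = 4) and alpha cells 14.9 ± 4.82 FPKM (n = 5), a difference of 5.05 (SE 0.538, limma adjusted p = 1.37e-05). Delta cells averaged 5.80 ± 3.75 FPKM (n = 6), lower than beta cells by a difference of -6.43 (SE 0.518, limma adjusted p = 5.11e-07). Within the high and the low set of samples the difference was 6.39 and 4.58 for beta minus alpha cells and -8.64 and -5.54 for delta minus beta cells. Delta minus alpha cells was -1.37 (SE 0.486, limma adjusted p = 0.122), with overlapping samples and with -2.25 and -0.96 within the sets. It was called, at -1.50 (SE 0.356, limma adjusted p = 0.0156), after scaling by median-ratio size factors and, at -1.54 (SE 0.355, limma adjusted p = 0.0126), after quantile normalization.

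Ero1l, the widely expressed oxidase Ero1-alpha (chr14:45283087-45318771, minus strand), showed no such pattern. Its values were 14.6, 14.9, 12.8, 4.56 and 11.7 FPKM in alpha cells and 11.8, 36.9, 7.11 and 33.1 FPKM in beta cells. In delta cells they were 8.67, 6.28, 13.6, 13.5, 10.6 and 5.77 FPKM. The 3 cell types overlapped. The difference of beta minus alpha cells was 0.68 (SE 0.484, limma adjusted p = 0.424) and delta minus beta cells -0.90 (SE 0.466, limma adjusted p = 0.222). Within the sets these were 1.33 and 0.86, and -2.18 and -0.43. The latter was called, at -1.28 (SE 0.298, limma adjusted p = 0.00739), with median-ratio size factors and, at -1.08 (SE 0.294, limma adjusted p = 0.0175), with quantile normalization. In alpha cells the FPKM of the 2 oxidase genes were of like size, at 14.9 ± 4.82 for Ero1lb and 11.7 ± 4.21 for Ero1l (n = 5). In beta cells Ero1lb was the higher gene in every sample.

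Txndc5, a protein disulphide isomerase family member known as ERp46 (chr13:38500079-38528824, minus strand), went the other way. It was at 16.0, 14.9, 12.8, 11.6 and 13.5 FPKM in alpha cells and at 8.06, 21.5, 2.5 and 7.04 FPKM in beta cells. In delta cells it was at 39.3, 32.3, 28.9, 25.4, 17.9 and 13.0 FPKM. Delta cells were higher than beta cells by 1.56 (SE 0.441, limma adjusted p = 0.0257), and overlapped only through beta 2. The difference was 0.70 within the high set and 1.75 within the low set. It was no longer called without beta 1, beta 3, beta 4, delta 1 or delta 3, with limma adjusted p from 0.0533 to 0.0816. The acinar marker sum was also higher in delta cells (72.5 to 566 FPKM) than in beta cells (0.0283 to 10.1 FPKM), and its part in this difference was not tested. Exons of Txndc5 overlap Bmp6 on the opposite strand.

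The other 6 genes of this role, P4hb, Pdia3, Pdia4, Pdia5, Pdia6 and Txndc11, passed the test in no pair. P4hb, the archetype of protein disulphide isomerases and the beta subunit of prolyl 4-hydroxylase, was the most abundant of them in alpha and delta cells and nearly level at means of 411 ± 125 (alpha, n = 5), 381 ± 166 (beta, n = 4) and 424 ± 145 FPKM (delta, n = 6). Pdia5 was the least abundant, with means of 3.99 to 5.65 FPKM. Pdia3 (ERp57, which works with the lectin chaperones) was at 110 to 940 FPKM in beta cells, spanning the range of 113 to 288 FPKM in alpha cells and of 136 to 282 FPKM in delta cells. It was called in delta minus beta cells with median-ratio size factors, at -1.03 (SE 0.304, limma adjusted p = 0.0279), and in beta minus alpha cells with quantile normalization, at 1.10 (SE 0.298, limma adjusted p = 0.0232).

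**Figure D3:**
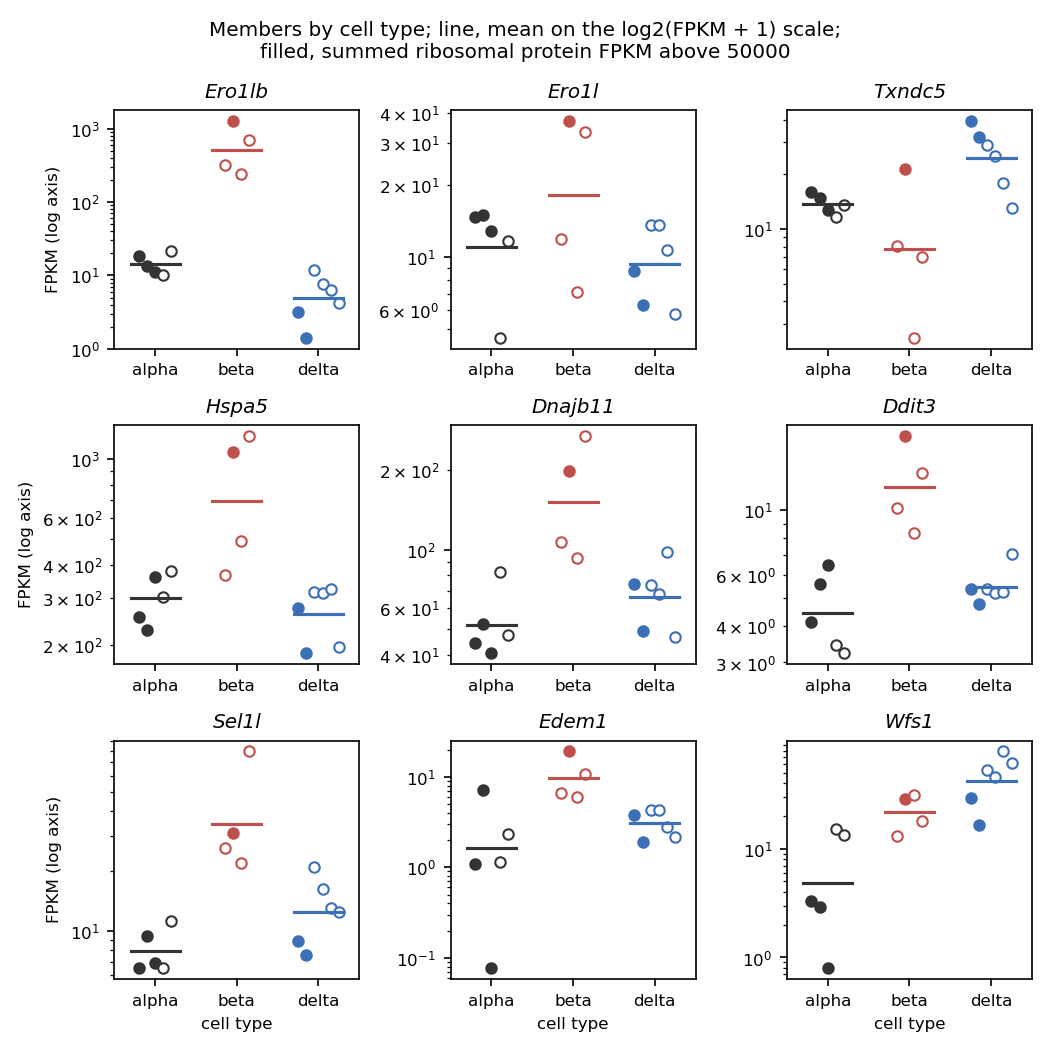
FPKM on a log axis of 9 members in each sample by cell type; lines are means on the log2(FPKM + 1) scale and filled points are samples of the high ribosomal protein set. The beta samples of Ero1lb, Ddit3 and Sel1l lie above all other samples, and those of Ero1l, Txndc5, Hspa5, Dnajb11, Edem1 and Wfs1 overlap with at least 1 other cell type.

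All 11 chaperones and cofactors had a higher mean log2(FPKM + 1) in beta than in alpha cells, with a median difference of 1.18, and 1 of 11 was called (2.84% of all genes tested were). Delta minus beta cells had a median of -1.18, with 9 of 11 lower and 2 called (2.99% of all genes tested were). Hspa5 (BiP, the Hsp70 chaperone of the ER, chr2:34771970-34777547, plus strand) was at 256, 227, 359, 303 and 378 FPKM in alpha cells. It was at 367, 1063, 492 and 1216 FPKM in beta cells and at 276, 186, 317, 315, 323 and 196 FPKM in delta cells. All beta samples were above all delta samples, and beta 1 lay below alpha 5. Delta cells were lower than beta cells by a difference of -1.40 (SE 0.408, limma adjusted p = 0.0294), which was -2.23 within the high set and -1.10 within the low set. That call was lost without beta 2, beta 4, delta 1, delta 2 or delta 6, with limma adjusted p up to 0.116, and with replicate number as a block. In beta minus alpha cells the difference was 1.22 (SE 0.424, limma adjusted p = 0.0941), with 1.95 and 0.83 within the sets. It was called, at 1.47 (SE 0.327, limma adjusted p = 0.00783), with median-ratio size factors and, at 1.62 (SE 0.413, limma adjusted p = 0.0171), with quantile normalization.

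Hsp90b1 (Grp94, the Hsp90 chaperone of the ER, chr10:86690209-86705509, minus strand) was the most abundant member in the mean over all samples. It was at 882, 421, 386, 2252 and 2954 FPKM in alpha cells and at 2057, 4080, 2983 and 11150.3 FPKM in beta cells. In delta cells it was at 825, 313, 2016, 1884, 2264 and 1664 FPKM. Within alpha and within delta cells the samples of the high set were below those of the low set. Beta minus alpha cells was 2.04 (SE 0.753, limma adjusted p = 0.113) and delta minus beta cells -1.72 (SE 0.724, limma adjusted p = 0.129), so neither passed the test. Within the sets they were 2.96 and 0.66, and -3.0 and -1.07. With the set of samples as a covariate the second was called, at -1.58 (SE 0.508, limma adjusted p = 0.0392). Exons of Hsp90b1 overlap other annotated transcripts on both strands.

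Dnajb11 (ERdj3, an Hsp40 cofactor of BiP, chr16:22857845-22879634, plus strand) passed in both comparisons with beta cells. It was at 44.6, 52.6, 40.7, 82.2 and 47.5 FPKM in alpha cells, at 107, 197, 93.3 and 268 FPKM in beta cells and at 74.1, 49.4, 73.6, 67.8, 97.7 and 46.8 FPKM in delta cells. All beta samples were above all alpha samples, and delta 5 was above beta 3. The difference of beta minus alpha cells was 1.53 (SE 0.400, limma adjusted p = 0.0291), with 2.09 and 1.14 within the high and the low set. In delta minus beta cells the difference was -1.18 (SE 0.385, limma adjusted p = 0.0496), with -1.69 and -0.99 within the sets. The first call was lost without alpha 1, alpha 2, alpha 3, alpha 5 or beta 4, and the second was lost in 13 of the 15 fits that left out a sample. With replicate number as a block the second was lost too.

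The other chaperones passed in no pair. Canx (calnexin, a lectin chaperone) was at 102 to 239 FPKM in alpha cells, 186 to 638 FPKM in beta cells and 84.9 to 174 FPKM in delta cells. All its beta samples were above all delta samples, with a difference of -1.30 in delta minus beta cells (SE 0.438, limma adjusted p = 0.0578) and -2.56 and -0.82 within the sets. Dnajc3 (p58IPK, a cofactor of BiP) was at 21.8 to 31.0 FPKM in alpha cells and 36.2 to 126 FPKM in beta cells, without overlap, at 1.38 (SE 0.440, limma adjusted p = 0.0690), with 2.28 and 1.06 within the sets. Without beta 3 the Dnajc3 difference was called, at 1.68 (SE 0.439, limma adjusted p = 0.0308). Without beta 1 or beta 3 that of Canx was called, at -1.59 (SE 0.459, limma adjusted p = 0.0377) and -1.57 (SE 0.447, limma adjusted p = 0.0307). Dnajb9 (ERdj4) and Manf, a secreted protein of the stressed ER, were highest by far in 1 beta sample, with 997 FPKM of Dnajb9 and 793 FPKM of Manf in beta 2 and no more than 121 and 232 FPKM in the other beta samples. With the set of samples as a covariate Dnajb9 was called in beta minus alpha cells, at 2.24 (SE 0.560, limma adjusted p = 0.0202), and in delta minus beta cells, at -1.83 (SE 0.520, limma adjusted p = 0.0215). Manf was then called in delta minus beta cells, at -1.53 (SE 0.390, limma adjusted p = 0.0120). Both were also called in delta minus beta cells with median-ratio size factors and with quantile normalization, as were Canx, Dnajc3 and Calr. In beta minus alpha cells Dnajc3 was called with median-ratio size factors, at 1.63 (SE 0.290, limma adjusted p = 0.00166), and with quantile normalization, at 1.44 (SE 0.310, limma adjusted p = 0.00604), as was Canx, at 1.44 (SE 0.315, limma adjusted p = 0.00715) and 1.56 (SE 0.410, limma adjusted p = 0.0204). Canx was also called in delta minus beta cells with the sample set as covariate, at -1.29 (SE 0.400, limma adjusted p = 0.0334). Calr, Hyou1, Sdf2l1 and Creld2 had differences between 0.14 and 0.84 in beta minus alpha cells.

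**Figure D4:**
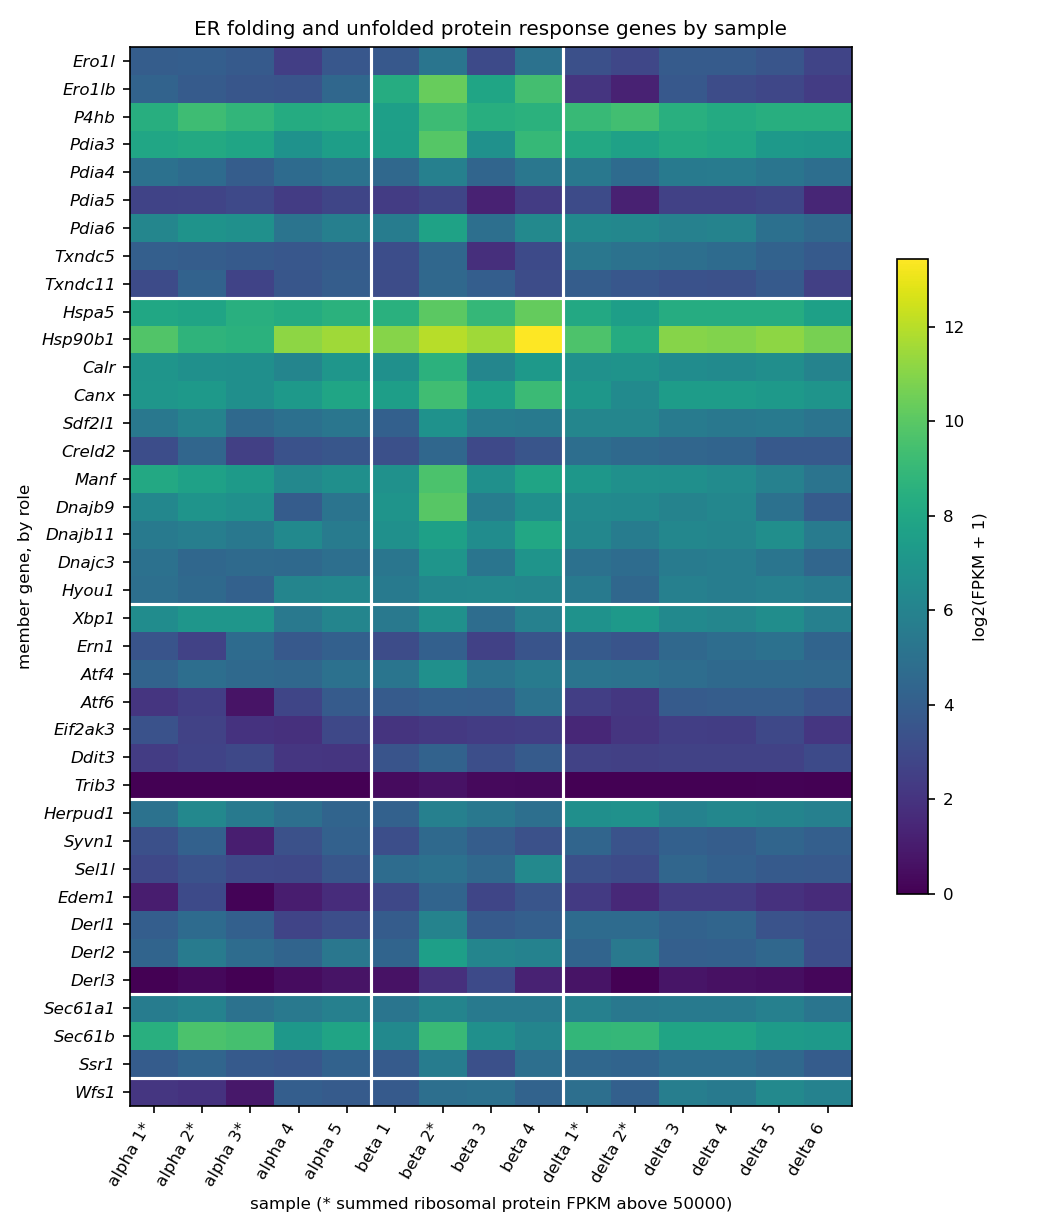
log2(FPKM + 1) of all 38 members (rows, grouped by role) in the 15 samples (columns, * marks the high ribosomal protein set). The Ero1lb row separates the 4 beta samples from the rest, Hsp90b1 has the highest mean, and Trib3 is near 0 throughout.

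The sensors were measured at lower levels. Ern1 (Ire1-alpha, the kinase and RNase that splices Xbp1) was at 10.3, 5.21, 24.6, 12.4 and 16.3 FPKM in alpha cells, at 7.70, 16.2, 5.07 and 10.4 FPKM in beta cells and at 13.1, 10.2, 22.6, 27.3, 30.8 and 19.3 FPKM in delta cells. Eif2ak3 (Perk, the kinase that phosphorylates eIF2-alpha) was at 9.29, 5.30, 2.95, 2.67 and 6.67 FPKM in alpha cells, at 3.00, 3.74, 4.30 and 4.72 FPKM in beta cells and at 1.80, 3.16, 4.59, 4.45, 6.66 and 3.45 FPKM in delta cells. Neither passed in any pair, and the cell types overlapped. The difference of delta minus beta cells was 1.00 for Ern1 (SE 0.437, limma adjusted p = 0.142) and -0.03 for Eif2ak3 (SE 0.348, limma adjusted p = 0.974). Within the sets it was -0.45 and 1.60 for Ern1, and -0.48 and 0.20 for Eif2ak3.

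Atf6, the sensor that is itself cut into a transcription factor (chr1:170704674-170867771, minus strand), was the only sensor called. It was at 3.24, 4.57, 0.664, 6.08 and 13.3 FPKM in alpha cells and at 13.8, 16.6, 15.9 and 32.2 FPKM in beta cells. In delta cells it was at 4.64, 3.51, 13.3, 14.5, 14.9 and 10.3 FPKM. The beta samples were above all alpha samples, by a narrow margin over alpha 5. The difference was 1.90 (SE 0.558, limma adjusted p = 0.0485), and 2.38 and 1.01 within the high and the low set. The call was lost in 13 of the 15 fits that left out a sample, with limma adjusted p up to 0.155. Alpha and delta samples of the high set were below those of the low set, by -1.57 and -1.49.

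Of the downstream factors, Xbp1 was at 91.4, 134, 135, 42.2 and 69.7 FPKM in alpha cells, at 42.2, 108, 27.3 and 58.4 FPKM in beta cells and at 116, 146, 81.1, 71.1, 94.6 and 56.1 FPKM in delta cells. The cell types overlapped and no pair passed, with delta minus beta cells at 0.77 (SE 0.455, limma adjusted p = 0.286), and 0.27 and 0.85 within the sets. With quantile normalization this was called, at 0.73 (SE 0.220, limma adjusted p = 0.0293). Gene-level FPKM does not separate spliced from unspliced Xbp1. Atf4, the factor translated when eIF2-alpha is phosphorylated, was at 18.5, 28.3, 22.7, 21.1 and 31.4 FPKM in alpha cells, at 36.6, 106, 33.3 and 46.6 FPKM in beta cells and at 35.3, 32.4, 26.9, 23.2, 22.9 and 22.5 FPKM in delta cells. All its beta samples were above all alpha samples, at a difference of 1.02 (SE 0.368, limma adjusted p = 0.105), with 2.16 and 0.56 within the sets. For delta minus beta cells it was -0.87 (SE 0.354, limma adjusted p = 0.118), with -1.62 and -0.67 within the sets. Both were called with median-ratio size factors, at 1.27 (SE 0.229, limma adjusted p = 0.00186) and -1.28 (SE 0.221, limma adjusted p = 0.000902), and also with quantile normalization and with the set of samples as a covariate.

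Ddit3 (Chop, a factor downstream of Atf4, chr10:127290774-127296288, plus strand) separated beta cells from both other cell types. It was at 4.15, 5.59, 6.47, 3.45 and 3.23 FPKM in alpha cells, at 10.2, 18, 8.35 and 13.5 FPKM in beta cells and at 5.36, 4.76, 5.36, 5.20, 5.25 and 7.08 FPKM in delta cells. The lowest beta sample was above the highest of the others. In beta minus alpha cells the difference was 1.26 (SE 0.294, limma adjusted p = 0.0156), with 1.58 and 1.40 within the high and the low set. It was not called when only these 2 cell types were fitted (limma adjusted p = 0.0820). Delta minus beta cells was -1.01 (SE 0.282, limma adjusted p = 0.0241), with -1.65 and -0.78 within the sets. It was no longer called without beta 2, beta 4, delta 3 or delta 4, or with replicate number as a block. Exons of Ddit3 overlap Mars and Gm4189 on the opposite strand and a further annotated Ddit3 entry on the same strand. Where they overlap, reads of Mars and Gm4189 cannot be told apart without strand, and strand would not separate those of the further entry. Trib3, a pseudokinase induced by Ddit3, was listed at 0 in all 5 alpha samples and in 5 delta samples, at 0.0426 FPKM in delta 5, and at 0.317, 0.576, 0.246 and 0.225 FPKM in the beta samples.

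Among the 7 genes of ER-associated degradation, 3 were called higher in beta than alpha cells (2.84% of all genes tested were) and 3 lower in delta than beta cells (2.99% of all genes tested were). Sel1l, the partner of the ubiquitin ligase Hrd1 (chr12:91806043-91849157, minus strand), was at 6.48, 9.47, 6.86, 6.50 and 11.3 FPKM in alpha cells, at 26.1, 30.8, 22.0 and 79.6 FPKM in beta cells and at 8.86, 7.52, 21, 16.2, 13.0 and 12.4 FPKM in delta cells. The beta samples did not overlap with the others. Beta minus alpha cells was 1.99 (SE 0.404, limma adjusted p = 0.00597), and was much the same within the sets, at 1.90 and 1.94. In delta minus beta cells the difference was -1.40 (SE 0.388, limma adjusted p = 0.0230), with -1.80 and -1.18 within the sets, and was lost without beta 4 or delta 1. Syvn1, which encodes Hrd1 itself, was at means of 10.6 ± 6.63 (alpha, n = 5), 13.7 ± 6.59 (beta, n = 4) and 16.2 ± 3.81 FPKM (delta, n = 6), and passed in no pair.

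Edem1, a lectin that draws misfolded glycoproteins into degradation (chr6:108828641-108859356, plus strand), was at 1.08, 7.17, 0.0767, 1.14 and 2.31 FPKM in alpha cells, at 6.66, 19.1, 6.01 and 10.7 FPKM in beta cells and at 3.83, 1.90, 4.29, 4.31, 2.82 and 2.17 FPKM in delta cells. Alpha 2 reached the range of beta cells and the other alpha samples did not. The difference of beta minus alpha cells was 2.00 (SE 0.489, limma adjusted p = 0.0202), with 2.93 and 1.69 within the sets, and was lost only without beta 4 among the fits that left out a sample. The difference of delta minus beta cells was -1.37 (SE 0.470, limma adjusted p = 0.0622) and -2.42 and -1.0 within the sets, although these samples did not overlap, and was called without alpha 2 (limma adjusted p = 0.0241) or alpha 3 (limma adjusted p = 0.0374), and with median-ratio size factors, at -1.71 (SE 0.377, limma adjusted p = 0.00509), as also with quantile normalization (limma adjusted p = 0.00271) and the sample set as covariate (limma adjusted p = 0.0499).

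The derlins are channel components of the degradation machinery. Derl2 (chr11:71007164-71019841, minus strand) was at 18.9, 47.9, 25.9, 19.5 and 39.3 FPKM in alpha cells, at 19.0, 188, 68.0 and 62.4 FPKM in beta cells and at 19.0, 42.8, 16.0, 16.2, 21.5 and 8.10 FPKM in delta cells. Beta 1 lay within the range of delta cells and the other 3 beta samples above it. Delta minus beta cells was -1.72 (SE 0.553, limma adjusted p = 0.0469), with -2.68 and -1.51 within the sets, and was lost in 13 of the 15 fits that left out a sample. Exons of Derl2 overlap Mis12 on the opposite strand.

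Derl3 (chr10:75893413-75895941, plus strand) was low, at 0, 0.237, 0, 0.369 and 0.636 FPKM in alpha cells, at 0.589, 2.58, 7.2 and 1.40 FPKM in beta cells and at 0.610, 0, 0.719, 0.548, 0.431 and 0.163 FPKM in delta cells. Beta 1 overlapped with both other cell types. In beta minus alpha cells the difference was 1.41 (SE 0.398, limma adjusted p = 0.0409) and delta minus beta cells -1.23 (SE 0.383, limma adjusted p = 0.0408). Within the sets they were 1.74 and 1.07, and -1.50 and -1.12. These calls were kept in 3 and 6 of the 15 fits that left out a sample, and the first was lost with the sample set as covariate (limma adjusted p = 0.0553). The second was lost with a pseudocount of 0.1. Both were lost with replicate number as a block and when only the 2 cell types compared were fitted. Derl1 passed in no pair, with means of 14.1 to 26.6 FPKM, and was called in beta minus alpha cells with the set of samples as a covariate, at 1.14 (SE 0.336, limma adjusted p = 0.0444).

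Herpud1, an ER membrane protein that recruits the degradation complex, was at 32.5, 75.9, 45.2, 29.5 and 19.0 FPKM in alpha cells, at 17.0, 56.3, 41.2 and 29.6 FPKM in beta cells and at 102, 112, 61.9, 72.9, 65.3 and 56.0 FPKM in delta cells. Delta minus alpha cells was 1.04 (SE 0.401, limma adjusted p = 0.168) and delta minus beta cells 1.18 (SE 0.428, limma adjusted p = 0.0779). Within the sets these were 1.13 and 1.39, and 0.91 and 1.18. With the set of samples as a covariate both were called, at 1.28 (SE 0.291, limma adjusted p = 0.0113) and 1.10 (SE 0.303, limma adjusted p = 0.0182). Both were called with quantile normalization too (limma adjusted p = 0.0401 and 0.0296), and neither with median-ratio size factors (limma adjusted p = 0.196 and 0.201). The second was also called without beta 2, at 1.43 (SE 0.433, limma adjusted p = 0.0334).

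None of the 3 translocon genes was called. Sec61a1, the pore subunit, was level at means of 48.6 ± 11.7 (alpha, n = 5), 47.8 ± 13.0 (beta, n = 4) and 46.4 ± 8.60 FPKM (delta, n = 6). Sec61b, a small subunit of the same channel, was at 354, 800, 701, 141 and 230 FPKM in alpha cells, at 81.7, 554, 108 and 68.5 FPKM in beta cells and at 484, 501, 231, 228, 168 and 153 FPKM in delta cells, and its high values were those of the high set in every cell type. Beta minus alpha cells was -1.42 (SE 0.672, limma adjusted p = 0.219), but -0.07 within the high set and -1.08 within the low set, and -0.80 (SE 0.354, limma adjusted p = 0.173) with the set as a covariate. Without beta 2, the only beta sample of the high set, it was called at -2.10 (SE 0.587, limma adjusted p = 0.0323). Ssr1, of the translocon-associated protein complex, had means of 15.2 to 25.1 FPKM.

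Wfs1 (wolframin, an ER membrane protein whose loss causes diabetes, chr5:36966104-36989205, minus strand) was the single member to separate delta from alpha cells. It was at 3.32, 2.92, 0.796, 15.1 and 13.4 FPKM in alpha cells, at 13.0, 28.9, 31.5 and 18.1 FPKM in beta cells and at 29.2, 16.5, 53.3, 45.6, 78.7 and 62.0 FPKM in delta cells. The lowest delta sample was above the highest alpha sample, and beta cells lay between, overlapping with both. Delta minus alpha cells was 2.88 (SE 0.559, limma adjusted p = 0.00330), with 2.88 within the high set and 1.97 within the low set. The difference of beta minus alpha cells was 1.94 (SE 0.619, limma adjusted p = 0.0686), and delta minus beta cells was 0.94 (SE 0.596, limma adjusted p = 0.323). Within the sets these were 3.26 and 0.44, and -0.38 and 1.54. The former was 1.5 (SE 0.494, limma adjusted p = 0.0681) with the set as a covariate, and was called with median-ratio size factors, at 2.18 (SE 0.690, limma adjusted p = 0.0462). It was also called without alpha 4, at 2.30 (SE 0.604, limma adjusted p = 0.0308), or alpha 5, at 2.27 (SE 0.621, limma adjusted p = 0.0426), the only alpha samples of the low set.

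Several members followed the sets of samples within a cell type. For 8 members the high-set samples were above the low-set samples without overlap in both alpha and delta cells (P4hb, Pdia6, Manf, Dnajb9, Xbp1, Herpud1, Derl1 and Sec61b), which held for 13.3% of all genes tested. For 4 members they were below (Hsp90b1, Hyou1, Atf6 and Wfs1), which held for 8.52% of all genes tested. Sec61b was higher by 1.69 in alpha cells and 1.35 in delta cells, and Hsp90b1 lower, at -2.30 and -1.93. Wfs1 differed by -2.29 in alpha cells and -1.38 in delta cells. None of the calls of Ero1lb, Dnajb11, Ddit3, Sel1l, Edem1, Hspa5, Derl2, Derl3, Atf6, Txndc5 and Wfs1 changed direction within either set.

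**Figure D5:**
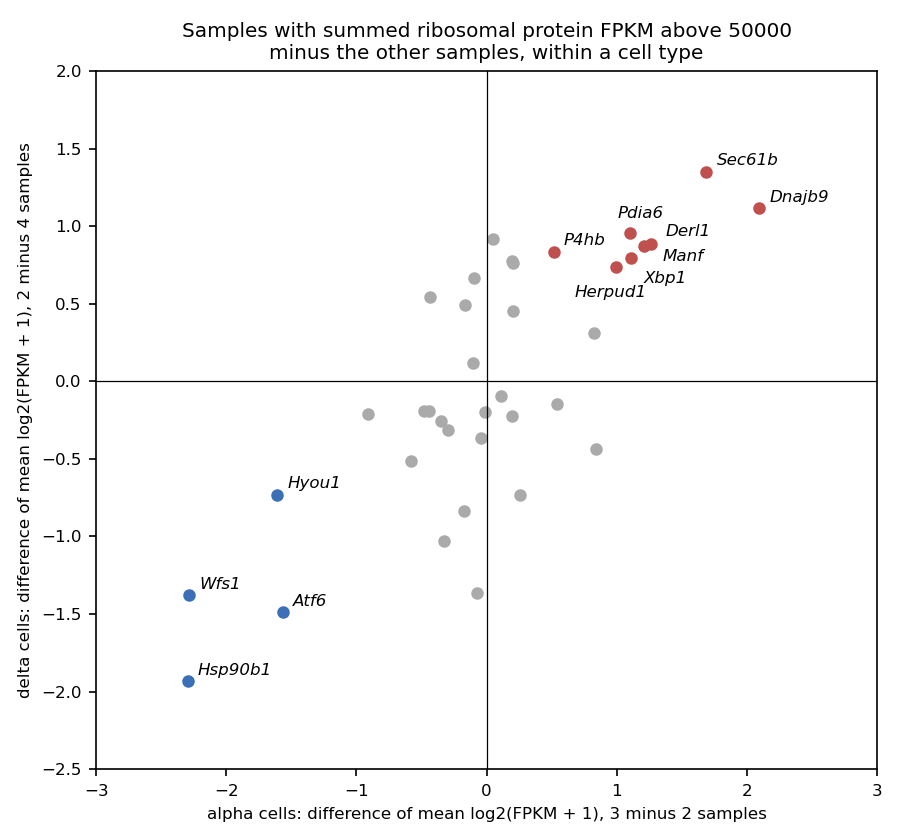
Each point is a member; axes give the difference of mean log2(FPKM + 1) between samples of the high and the low ribosomal protein set within alpha cells (3 minus 2 samples) and within delta cells (2 minus 4 samples). Named points are the 8 members above (red) and 4 below (blue) without overlap in both cell types, among them Sec61b (1.69 and 1.35) and Hsp90b1 (-2.30 and -1.93).

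Other genes of the same processes were taken from 5 lists of 140 symbols, of which 123 were tested. In beta against alpha cells 9 were higher and 3 lower, where 2.84% and 4.82% of all genes tested were, with a median difference of 0.02. In delta against alpha cells 1 was higher and 1 lower, where 5.33% and 1.48% of all genes were, with a median of 0.07. In delta against beta cells 4 were higher and 9 lower, where 11.7% and 2.99% of all genes were, with a median of -0.04. The list of the wider unfolded protein and integrated stress response held 5 of the 9 genes higher in beta than alpha cells and 5 of the 9 lower in delta than beta cells, out of 27 tested. By sign, 17 of the 27 were higher and 10 lower in beta than alpha cells (median 0.21). In delta against beta cells 14 were higher and 13 lower (median 0.08). The lists were chosen with earlier results of these data known. Of the 26 other degradation genes tested, 1 was called, Ubxn6, lower in beta than alpha cells. Of the 15 other oxidoreductases 1 was higher in beta than alpha cells, Dnajc10, the reductase ERdj5, which was also lower in delta than beta cells. Of the 22 other chaperones and prolyl isomerases, Uggt1, the glucosyltransferase that returns glycoproteins to the lectin chaperones, was higher in beta than alpha cells and lower in delta than beta cells, and Cnpy2 was the reverse. In the same list Rcn1 was lower in beta than alpha cells, at -1.90 (SE 0.483, limma adjusted p = 0.0249). Sil1, a nucleotide exchange factor of BiP, was higher in delta than beta cells, at 1.69 (SE 0.403, limma adjusted p = 0.00955), as was Mogs, a glucosidase that trims N-glycans, at 1.10 (SE 0.319, limma adjusted p = 0.0285). Of the 33 genes of translocation and N-glycosylation, Magt1 and Srp72 were higher in beta than alpha cells and lower in delta than beta cells.

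The largest differences without overlap among these genes were in the stress response list. Nupr1, a small chromatin protein induced by stress, was at 22.8 to 59.5 FPKM in beta cells, at 0 to 0.576 FPKM in alpha cells and at 0.194 to 2.11 FPKM in delta cells. In beta minus alpha cells the difference was 4.81 (SE 0.351, limma adjusted p = 3.47e-07) and delta minus beta cells -4.49 (SE 0.338, limma adjusted p = 2.18e-07). Atf5, a factor related to Atf4, averaged 22.0 ± 9.12 FPKM in beta cells (n = 4) against 3.28 ± 2.23 FPKM (alpha, n = 5) and 3.95 ± 1.36 FPKM (delta, n = 6), with differences of 2.48 (SE 0.445, limma adjusted p = 0.00223) and -2.16 (SE 0.428, limma adjusted p = 0.00283). Asns, asparagine synthetase and a target of Atf4, averaged 112 ± 67.6 FPKM in beta cells (n = 4) and 26.2 ± 10.3 FPKM in delta cells (n = 6), at -1.95 (SE 0.429, limma adjusted p = 0.00587). Vldlr, a lipoprotein receptor, was at 2.40 to 43.3 FPKM in beta cells and 0.0356 to 1.14 FPKM in alpha cells, at 2.75 (SE 0.594, limma adjusted p = 0.00891). Creb3l1 (Oasis, a membrane-bound factor cut like Atf6) averaged 10.4 ± 3.96 FPKM in delta cells (n = 6) and 1.36 ± 1.70 FPKM in alpha cells (n = 5), at 2.49 (SE 0.429, limma adjusted p = 0.00124). Slc3a2, the heavy chain of amino acid transporters, was lower in delta than alpha cells, at 12.1 ± 4.22 (n = 6) against 37.9 ± 9.57 FPKM (n = 5) and a difference of -1.59 (SE 0.349, limma adjusted p = 0.00848). Within the high and the low set Nupr1 differed by 5.64 and 4.45 in beta minus alpha cells and by -4.89 and -4.42 in delta minus beta cells, and Atf5 by 2.86 and 2.39 and by -2.78 and -1.91. Asns differed by -2.51 and -1.84 in delta minus beta cells, Vldlr by 4.77 and 2.13 in beta minus alpha cells, and in delta minus alpha cells Creb3l1 by 2.70 and 1.62 and Slc3a2 by -1.22 and -1.63.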

How the data were processed

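The 38 members and the pathway, marker and motif lists were chosen with earlier results of these data known. Per the study's methods, reads were demultiplexed (CASAVA) and mapped to GRCm38 by the authors using TopHat (2.0.8 in the submitters' processing notes, with a later release named in the study's methods). The deposited values are FPKM, made with Cufflinks 2.2.1. The annotation release is not given in the sources used here. The study's own test used counts, which were not analysed here. Genes with a mean above 1 FPKM in at least 1 cell type were tested on log2(FPKM + 1) with limma 3.58.1 (lmFit and eBayes with trend, R 4.3.3), all 15 samples in 1 fit, with Benjamini-Hochberg adjustment. The fit was tested on simulated data. Members called in any pair, the sensors and their effectors, Hspa5, Hsp90b1 and Ero1l are given in full, with up to 3 pathway genes per comparison that were called without overlap. The split at 50000 FPKM of summed ribosomal protein genes was known from earlier results. Alternatives changed the pseudocount, filter, scaling, covariate, block, samples fitted and each sample in turn. Gene positions are from GENCODE M21 (GRCm38) and promoter windows from RefSeq (GRCm38.p6). Exons of 13 members overlap another gene. Steps of single reads gave a depth of 7.47 M to 30.5 M reads in 5 samples. In the other 10 the depth is unknown, so no counting interval is given. Each sample is a pool of mice, and p-values measure the spread between these samples.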

Additional observations from a re-analysis of the deposited data

Results flagged for a closer look

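In 6 of 113 groups of one member in one cell type, the highest or lowest sample lay farther from its neighbour on log2(FPKM + 1) than Dixon's 95% critical value allows, where chance gives about 1 in 20 groups (5.65 here). Ero1l was low in alpha 4, at 4.565 FPKM. Hyou1, a large Hsp70-like chaperone, was low in beta 1 at 45.52 FPKM and in delta 2 at 21.83 FPKM. Ddit3 was high in delta 6 at 7.076 FPKM. Derl1 was high in beta 2 at 63.96 FPKM. Trib3 was above 0 in delta 5 alone among delta cells, at 0.04255 FPKM.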

How the results depend on the processing

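No called member difference changed direction under any alternative run. Ero1lb (both calls), Sel1l in beta minus alpha cells and Wfs1 in delta minus alpha cells stayed past the threshold in all 23, with limma adjusted p up to 0.00138, 0.0348 and 0.0143. Median-ratio size factors and quantile normalization moved the median of all genes by 0.13 and 0.11 in beta minus alpha, -0.12 and -0.17 in delta minus alpha and -0.28 and -0.30 in delta minus beta cells, and the share of calls that were higher from 37.0% to 52.7% and 47.6%, from 78.3% to 67.9% and 56.8%, and from 79.6% to 51.5% and 50.9%. With these scalings the members higher in beta than alpha cells went from 7 to 12 and 12, those lower in delta than beta cells from 7 to 16 and 15, those lower in delta than alpha cells from 0 to 1 and 1, and those in the F-test from 7 to 19 and 17. Over all genes tested, the first went from 409 to 1091 and 937, and the second from 431 to 1297 and 1348. The third went from 213 to 342 and 470, and the F-test from 2301 to 3179 and 3212. The pathway genes called went to 26 and 26 (beta and alpha), 6 and 6 (delta and alpha) and 28 and 27 (delta and beta). In the other directions, calls over all genes tested went from 695 to 981 and 1033 for lower in beta than alpha cells. Those higher in delta than alpha cells went from 768 to 722 and 618, and higher in delta than beta cells from 1683 to 1379 and 1397. Quantile normalization gave 2 members higher in delta than alpha and 3 higher in delta than beta cells. With the set of samples as a covariate these counts were 2 and 2, with 13 lower in delta than beta cells, 14 in the F-test and 22 pathway genes in delta and beta cells. Over all genes tested they were then 962 and 2336, with 661 lower in delta than beta cells and 3086 in the F-test. Fitting only the 2 cell types compared left 2 members higher in beta than alpha cells (Ero1lb and Sel1l), and 2 (beta and alpha) and 7 (delta and alpha) pathway genes.

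Leaving out 1 sample at a time gave 3 to 7 members higher and 0 to 1 lower in beta than alpha cells. In delta against alpha cells it gave 1 to 1 higher and 0 to 0 lower, with 0 to 2 higher in delta than beta cells and 1 to 7 lower, 3 to 9 in the F-test, and 6 to 16, 2 to 4 and 7 to 23 pathway genes. Over all genes tested, 244 to 654 were higher and 356 to 1344 lower in beta than alpha cells. In delta against alpha cells 615 to 907 were higher and 177 to 238 lower. In delta against beta cells 1156 to 2307 were higher and 264 to 739 lower, with 1694 to 2884 in the F-test. Without beta 4, there were 3 members higher in beta than alpha cells, 1 lower in delta than beta cells and 3 in the F-test. Over all genes tested these were 244, 264 and 1694. Higher in beta than alpha cells were 4 without alpha 1, alpha 2 or alpha 3, and 295, 276 and 333 of all genes tested. Lower in delta than beta cells were 2 without beta 2 or delta 1, 3 without delta 3, delta 4 or delta 6 and 4 without delta 2 or delta 5. Of all genes tested, these fits in the same order called 336, 310, 328, 338, 326, 366 and 345 lower. Pathway genes called numbered 6 without alpha 2 and 7 without beta 4 (beta and alpha), 4 without beta 2, beta 3 or delta 2 (delta and alpha), and 23 without beta 2 and 7 without beta 4 (delta and beta).

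Deviations of samples with the same replicate number had a mean correlation of 0.0762 (from -0.152 to 0.281), against -0.0161 for other numbers. The number-2 samples correlated at 0.271 (alpha and beta), 0.281 (alpha and delta) and 0.268 (beta and delta), and alpha 5 with delta 5 at 0.253. All other same-number pairs were at 0.116 or below. Whether alpha and beta samples share islet pools is not stated in the study's methods, and these correlations cannot decide it. With the replicate block 8 members were higher in beta than alpha cells, 2 higher in delta than beta cells, 4 lower, and 9 in the F-test. Over all genes tested these were 423, 1659, 342 and 2198. The block ended the calls of Derl3 in both comparisons and of Hspa5, Dnajb11 and Ddit3 in delta minus beta cells, and added Hsp90b1 in both comparisons with beta cells, Wfs1 in beta minus alpha and Herpud1 in delta minus beta cells. Without the filter Trib3 was called in both comparisons with beta cells, and Atf6 and Derl2 were lost. Derl3, Trib3 and Edem1 were near 0 FPKM in some samples, and the part of read depth in their values was not tested. Intervals for counting error could not be given.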
